A study of Homo sapiens with 6 samples.

Results

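Mucins are long glycoproteins whose tandem repeats, rich in serine, threonine and proline, carry dense O-linked sugar chains. The genes examined here were 8 mucin genes, taken by gene symbol from the RNA-Seq count table of A549 cells upon knock-down of KMT9α: MUC1, MUC4, MUC5AC, MUC5B, MUC13, MUC15, MUC16 and MUC20. The table holds 23180 gene symbols, and 7 of the 8 mucins have a row in it. MUC5AC was not analysed here. Where a gene had several transcripts, the one with the most counts over all 6 samples was used.

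A549 cells, a widely used human line that was derived from a lung adenocarcinoma, are labelled as wild type and as passage 11 in all samples. Of the 6 samples, 3 were transfected with a control siRNA (siControl) and 3 with an siRNA against KMT9α (siKMT9α), and RNA was taken 3 days after transfection with 65 nM siRNA. KMT9α, listed as N6AMT1, is the catalytic subunit of the histone methyltransferase KMT9. The labels call the samples of a group biological replicates, and they do not say how these cultures were kept apart. All results come from 1 cell line and from 1 siRNA against KMT9α, so an effect of the knock-down and an effect of that siRNA on other transcripts cannot be told apart.

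On 1 transcript per gene, the samples held 13740097 to 19832395.5 estimated counts. Levels are given as counts per 1000000 (CPM), scaled by edgeR's TMM factors, and 3 values in a row are those of replicates 1, 2 and 3. Differences are given as log2FC, the log2 fold change of siKMT9α over siControl, with its standard error (SE), and adjusted p-values are those of edgeR after Benjamini-Hochberg adjustment over all genes tested. N6AMT1 was at 10.2 to 11.5 CPM in siControl and at 2.87 to 3.35 CPM in siKMT9α, in the direction of the labels. Of 12 alveolar and epithelial markers, 7 passed the filter on low counts, of which 4 fell, 2 rose and 1 did not pass the test. Of those that fell, KRT8, KRT18 and KRT19 had log2FC values of -1.28, -0.75 and -0.68, and EPCAM is described below. The 2 that rose, ABCA3 and CDH1, had log2FC values of 0.75 and 1.34. The keratin that did not pass, KRT7, was at 1260.2 ± 64.2 CPM in siControl and 1268.6 ± 51.4 CPM in siKMT9α (SD, n = 3 each), and the surfactant gene SFTPA1 had no count in any sample. Summed levels were 4444.1 to 4927.7 CPM in siControl and 3015.6 to 3199.8 CPM in siKMT9α for the epithelial markers, with 1 of 12 at 0 in all samples. For the other cell types, the 5 leukocyte markers summed to 77.7 to 84.6 and 27.1 to 28.9 CPM, nearly all of it CD68, while PTPRC was at most at 0.105 CPM. The 5 fibroblast markers summed to 4.29 to 4.94 and 3.03 to 3.61 CPM, the 4 ciliated cell markers to 3.58 to 4.41 and 0.548 to 1.47 CPM, and the 4 endothelial markers to 0.598 to 1.05 and 0.0756 to 0.438 CPM. The part of these shifts in the results on mucins was not tested.

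The products of the 8 genes fall into secreted and membrane mucins. MUC5B and MUC5AC are the secreted, gel-forming mucins of airway mucus. MUC1, MUC4, MUC13, MUC15, MUC16 and MUC20 span the cell membrane and carry their glycosylated part on the outside of the epithelial cell, where it protects the surface and can be shed. Both kinds are built in the endoplasmic reticulum and receive their O-linked sugars in the Golgi apparatus.

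The transcripts of some mucins repeat themselves, which bears on how reads can be placed on them. On the longest coding transcript of the GENCODE annotation of GRCh37, 29.2% of the 50-base windows of MUC5B occurred more than once in the same transcript. This share was 28.9% for MUC4, 11% for MUC20, 1.07% for MUC16 and 0% for MUC1, MUC13 and MUC15 as assembled in this build. How the counting treated reads that match several places is not given in the sources used here. The repeated stretches below, with at least 3 exact copies, were read from the genome in the direction of transcription. That of MUC5B lies at chr11:1264419-1264505 on the plus strand in exon 31 of 49, that of MUC20 at chr3:195452019-195452075 on the plus strand in exon 2 of 4, and that of MUC4 at chr3:195514875-195514970 on the minus strand in exon 2 of 25. The stretches were found as 5 exact copies of 87 bases in MUC5B, 10 of 57 bases in MUC20 and 7 of 96 bases in MUC4. The MUC4 stretch is itself made of similar but not identical shorter units in a row. Its 96 bases are thus the length of the exact copies and not that of the shortest repeat unit.
MUC5B repeat: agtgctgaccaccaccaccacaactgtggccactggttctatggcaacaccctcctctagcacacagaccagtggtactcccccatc
MUC20 repeat: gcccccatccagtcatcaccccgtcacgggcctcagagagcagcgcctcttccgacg
MUC4 repeat: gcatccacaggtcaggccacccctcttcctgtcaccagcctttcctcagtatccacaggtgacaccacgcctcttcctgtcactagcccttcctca

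Of the 7 mucins in the table, 3 passed the filter on low counts (MUC5B, MUC13 and MUC1), and 4 had too few counts for it (MUC20, MUC4, MUC16 and MUC15). In edgeR's quasi-likelihood test, MUC5B and MUC13 rose upon knock-down of KMT9α at an adjusted p under 0.05, MUC1 did not pass the test and no mucin fell. This is to be read against the whole transcriptome, where 75.6% of the 13877 genes tested passed the same threshold, 37.1% higher and 38.5% lower. At the study's own threshold, a P below 1e-08 with an absolute log2 fold change above 0.26, MUC5B passed and MUC13 did not, and 24.2% of all genes tested passed. Over all genes tested, the median log2FC was -0.01.

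MUC5B showed the largest ratio between the groups of the 3 mucins tested. The table lists it as NM_002458 on chromosome 11 of hg19 from 1244295 to 1283406, on the plus strand, with the antisense RNA MUC5B-AS1 inside its annotated span. MUC5B was at 1.59, 0.679 and 1.38 CPM in the siControl samples, against 6.88, 6.72 and 7.24 CPM in the siKMT9α samples. Every siKMT9α sample lay above every siControl sample, and siControl replicate 2 was the lowest. The means were 1.22 ± 0.478 and 6.95 ± 0.268 CPM (SD, n = 3 each), a 5.71-fold ratio. The log2FC was 2.49 ± 0.19 (SE), and the adjusted p in edgeR's test was 5.58e-10. Behind these values stood 11 to 30 counts per siControl sample and 91 to 138.5 counts per siKMT9α sample, spread over a transcript of 17.8 kb. Whether the counting used the strand is not given in the sources used here, so reads of MUC5B and MUC5B-AS1 cannot be told apart.

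MUC13, a membrane mucin of the digestive and airway epithelium, was the mucin with the most counts. Its row, NM_033049, spans bases 124624289 to 124653595 of chromosome 3 (minus strand). Its levels were 14.7, 12.1 and 12.2 CPM in siControl replicates 1 to 3 and 16.9, 15.7 and 17.7 CPM in siKMT9α replicates 1 to 3. The groups did not overlap, and siControl replicate 1 came closest to the siKMT9α samples. MUC13 rose from 13.0 ± 1.5 to 16.8 ± 0.971 CPM (SD, n = 3 each), with a log2FC of 0.37 ± 0.09 (SE) and an adjusted p of 0.00153 in edgeR's test. With the library size alone as scaling, under which the median over all genes shifted to -0.12, its log2FC was 0.27 (adjusted p = 0.0155).

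MUC1, the membrane mucin of most simple epithelia, overlapped between the groups. It has 20 transcripts in the table, and the one used, NM_001204286, spans bases 155158300 to 155162706 of chromosome 1 (minus strand), and a further protein-coding gene on the same strand is annotated over it. MUC1 was at 1.12, 0.895 and 1.2 CPM in the siControl samples, against 1.47, 1.17 and 0.968 CPM in the siKMT9α samples. The log2FC was 0.14 ± 0.26 (SE) and the adjusted p was 0.661, and without siKMT9α replicate 1 it was -0.04. The 14.5 to 23 counts per sample give a wide error, so that a change of this size was not detectable at this depth. Of the 20 transcripts, 14 passed the filter when each was tested on its own, with log2 fold changes from -0.08 to 0.16 and 0 calls at an adjusted p under 0.05 (lowest adjusted p = 0.598).

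MUC20, a small membrane mucin that lies beside MUC4 on chromosome 3, from 195447753 to 195464540 on the plus strand, had too few counts for the main test. It had 2, 1.5 and 3 counts in the siControl samples, against 8, 7 and 16.5 in the siKMT9α samples. This corresponds to 0.106, 0.0926 and 0.156 CPM and to 0.605, 0.512 and 0.863 CPM. The groups did not overlap, and the siControl samples lay at or below 3 counts. Summed over the samples, siControl held 6.5 counts and siKMT9α 31.5 counts. Scaled by the summed effective library sizes of the groups, the ratio was 5.71. The exact 95% interval, taken on the sums rounded to whole counts, was 2.34 to 14.5 and covers counting error only. Without the filter on low counts, its log2FC was 2.33 ± 0.57 (SE) and the adjusted p was 0.000113. MUC20-OT1, a long noncoding RNA on the same strand, overlaps its annotated span, and reads from both cannot be told apart there.

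The remaining membrane mucins were at or near the limit of detection. A count of 3 corresponded to 0.156 to 0.227 CPM in these samples. MUC4, on chromosome 3 from 195473638 to 195538844, had 0.5, 4 and 3 counts in siControl and 3, 3.5 and 2 counts in siKMT9α. The groups overlapped, and the ratio of the summed counts, scaled by library size in the same way, was 1.34. The exact 95% counting interval, again taken on rounded sums, was 0.454 to 3.95. MUC16, also known as the tumour antigen CA-125, had 2 counts in siControl replicate 2 and 0 in the other samples. MUC15 had 0 counts in all 6 samples, which allows at most 0.227 CPM in the sample with the highest limit.

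Considering all 7 mucins, the groups did not overlap for 3, MUC5B, MUC13 and MUC20, and for these the siKMT9α samples were higher. Over the 13877 genes that passed the filter on low counts, the groups did not overlap for 77%. Of the mucins that passed it, the groups did not overlap for MUC5B and MUC13 and overlapped for MUC1. MUC20, MUC4, MUC16 and MUC15 did not pass it, so the 3 mucins of 7 cannot be set against the 77%. With 3 samples against 3, the two-sided exact permutation test gave p = 0.1 for each of the 3 mucins, the smallest p that this design allows, and p = 0.5 for MUC1.

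**Figure D1:**
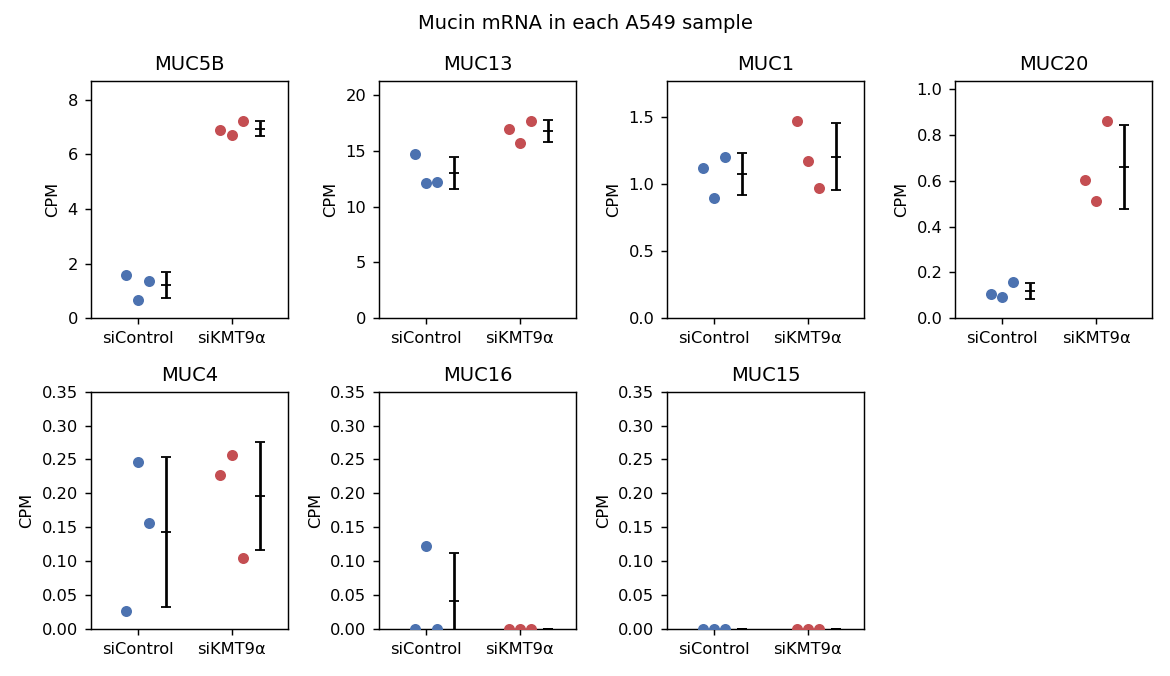
CPM of the 7 mucins in each sample (points, 3 siControl in blue and 3 siKMT9α in red), with the group mean and SD as black bars and a separate vertical axis for each gene. The siKMT9α samples lie above all siControl samples for MUC5B, MUC13 and MUC20, overlap with them for MUC1 and MUC4, and MUC15 is at 0 in all samples.

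To compare the mucins with each other, the CPM of each was divided by the length of its transcript. In siControl, MUC13 was the highest at 4.56 ± 0.527 CPM per kb (SD, n = 3), followed by MUC1 at 0.587 ± 0.0854, MUC5B at 0.0683 ± 0.0268, MUC20 at 0.0191 ± 0.00539 and MUC4 at 0.00854 ± 0.00661. In siKMT9α, the order was the same, with MUC13 at 5.88 ± 0.341 CPM per kb, MUC1 at 0.661 ± 0.14, MUC5B at 0.39 ± 0.015, MUC20 at 0.107 ± 0.0294 and MUC4 at 0.0117 ± 0.00479. The samples of neighbouring genes in this order did not overlap in either group, except that MUC4, MUC16 and MUC15 could not be ordered at this depth. Of the level per kb summed over these 7 mucins alone, MUC13 made up 86.9% ± 1.9 in siControl and 83.4% ± 1.61 in siKMT9α. MUC5B made up 1.28% ± 0.422 and 5.54% ± 0.177 (SD, n = 3 each). The sum was 5.24 ± 0.572 and 7.05 ± 0.357 CPM per kb. Per length, MUC5B thus ranked below MUC13 and MUC1 in both groups. The full transcript length was used, although 29.2% of the 50-base windows of MUC5B repeat, against 0% for MUC1. How reads in repeats were counted is not known, so the rank of MUC5B below MUC1 is uncertain, above all in siKMT9α. MUC20 in siControl and MUC4 in both groups lay near the level of 3 counts. As a mean over all transcripts of a gene, MUC4 lay above MUC20 in siControl, at 0.0234 against 0.0187 CPM per kb, and below it in siKMT9α, at 0.0346 against 0.101 CPM per kb, so that their order in siControl depends on the transcript chosen.

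**Figure D2:**
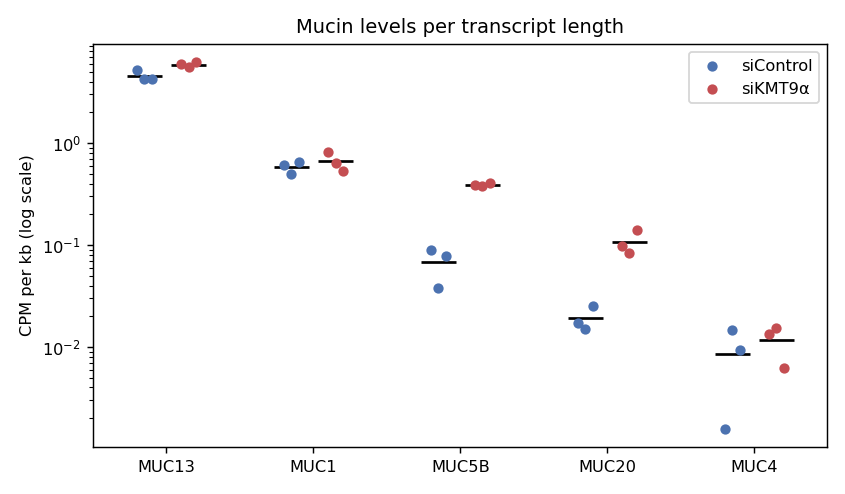
Level of 5 mucins in CPM per kb of transcript on a log axis, for siControl (blue) and siKMT9α (red), with points for samples and black lines for group means. MUC13 is the highest in both groups, and MUC5B moves from 0.0683 to 0.39 CPM per kb.

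The promoters are shown for 2 of the mucins tested, MUC13, which rose, and MUC1, whose groups overlapped, and for the membrane mucin MUC12 described below, which was lower in siKMT9α. The sequences are the 250 bases before the annotated start, from RefSeq on GRCh38.p14, whose promoter table held an entry for 4 of the 8 mucins. MUC13 lies at chr3:124934752-124935001 on the minus strand, MUC1 at chr1:155192916-155193165 on the minus strand and MUC12 at chr7:100969315-100969564 on the plus strand. The capitals mark matches, on either strand, to TATAAA (the TATA box), TGAGTCA (a form of the AP-1 site), TGTTTAC (the forkhead core), CACGTG (the E-box) or GGGCGG (the GC box).
MUC13 promoter: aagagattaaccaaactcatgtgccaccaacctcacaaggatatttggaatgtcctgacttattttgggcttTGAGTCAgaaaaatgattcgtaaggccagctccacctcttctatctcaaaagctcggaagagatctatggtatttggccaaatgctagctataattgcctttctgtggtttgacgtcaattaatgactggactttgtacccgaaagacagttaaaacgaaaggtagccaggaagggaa
MUC1 promoter: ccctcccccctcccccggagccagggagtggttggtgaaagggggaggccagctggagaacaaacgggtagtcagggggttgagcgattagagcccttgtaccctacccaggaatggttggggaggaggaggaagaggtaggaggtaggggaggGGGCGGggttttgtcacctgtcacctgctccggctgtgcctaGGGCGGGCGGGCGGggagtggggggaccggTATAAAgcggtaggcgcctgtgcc
MUC12 promoter: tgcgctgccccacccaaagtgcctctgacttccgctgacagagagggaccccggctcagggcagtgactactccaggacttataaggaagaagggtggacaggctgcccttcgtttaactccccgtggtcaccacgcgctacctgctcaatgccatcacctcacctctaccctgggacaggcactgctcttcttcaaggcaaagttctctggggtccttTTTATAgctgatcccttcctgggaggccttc

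The MUC13 window holds 1 TGAGTCA, the MUC12 window 1 TATAAA on the opposite strand, and the MUC1 window 1 TATAAA and 4 copies of GGGCGG, of which 3 overlap. Over 35116 promoter windows of the same length, 10.7% hold TATAAA, 4.2% TGAGTCA, 2.98% TGTTTAC, 6.34% CACGTG and 42.6% GGGCGG. These matches describe letters in a window. Binding was not measured.

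Other mucin genes were looked up in the same fit. Of 15 further mucins and mucin-like glycoproteins, 12 had a row and 4 were tested, of which 1 was called higher and 2 lower (median log2 fold change -0.40, against -0.01 over all genes). These are 3 of 4, beside 75.6% called over all genes, and without the filter the median was 0.18. MUC12, a membrane mucin of the intestine, was at 2.12, 2.22 and 1.46 CPM in siControl and at 0.227, 0.987 and 0.445 CPM in siKMT9α, and all siKMT9α samples were lower. MUC12 passed the filter through its siControl samples, and in siKMT9α it had 3 to 13.5 counts, so these levels are given as a description. It was not tested where at least 10 counts were required in every sample. MCAM, a cell adhesion molecule also named MUC18, fell from 21.3 ± 1.53 to 11.0 ± 1.17 CPM (SD, n = 3 each), with a log2FC of -0.95. CD164, a sialomucin also named MUC24, had a log2FC of 0.16 with overlapping groups and an adjusted p of 0.0247 in edgeR's test, which was 0.439 when the library size alone was used. MUC2 and MUC6, the gel-forming mucins that lie in the same cluster as MUC5B on chromosome 11, reached at most 0.157 and 0.314 CPM in a sample.

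Mucin-type O-glycosylation begins with the GALNT enzymes, which add N-acetylgalactosamine to serine and threonine. Of 19 such genes, 14 were tested, and 8 rose and 2 fell upon knock-down of KMT9α, while 4 did not pass the test. The 10 of 14 called stand beside 75.6% called over all genes. The median log2 fold change was 0.56, and -0.04 without the filter, where 18 of the genes were tested. GALNT10 was at 54.0, 50.8 and 55.7 CPM in siControl and at 209.1, 195.1 and 215.3 CPM in siKMT9α, with a log2FC of 1.95 ± 0.05 (SE). GALNT2 rose from 76.5 ± 3.73 to 238.9 ± 12.7 CPM (log2FC 1.64), and GALNT12 from 3.38 ± 0.30 to 7.67 ± 0.138 CPM (1.17; SD, n = 3 each). GALNT1, with the highest CPM of the list in siControl, had a log2FC of 1.08, GALNT14 of 1.03, GALNT4 of 0.69, GALNT18 of 0.60 and GALNT7 of 0.51. GALNT4 overlaps an exon of the readthrough gene POC1B-GALNT4, so that its counts are uncertain. In the opposite direction, GALNT5 fell from 46.9 ± 2.76 to 8.25 ± 0.462 CPM (SD, n = 3 each), with a log2FC of -2.5 ± 0.08 (SE). GALNT6 fell from 5.21 ± 0.75 to 2.09 ± 0.148 CPM (SD, n = 3 each), with a log2FC of -1.32. The summed CPM of the 19 genes was 548.2 to 622.2 in siControl and 1078.6 to 1208.4 in siKMT9α.

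The enzymes that extend the first sugar moved in both directions. Of 14 genes, 10 were tested, and all 10 passed, 5 higher and 5 lower, with a median log2FC of -0.02, where 75.6% of all genes were called, 37.1% higher and 38.5% lower. C1GALT1, which makes the core 1 structure, rose from 67.1 ± 7.26 to 107.1 ± 4.59 CPM (SD, n = 3 each), with a log2FC of 0.68. Its chaperone C1GALT1C1 had a log2FC of 0.25, and did not pass edgeR's test when the library size alone was used (adjusted p = 0.0687). ST3GAL1, which caps core 1 with sialic acid, rose from 41.2 ± 2.47 to 60.7 ± 2.5 CPM (log2FC 0.56), and GCNT3, which makes branched core structures of mucins, from 279.6 ± 8.06 to 360.4 ± 6.32 CPM (0.37, SD, n = 3 each). With offsets for GC content and length, the log2FC of ST3GAL1 was 0.27. GCNT1 and GCNT4, which also make the core 2 branch, fell by 0.94 and 2.09 on the log2 scale. FUT1, a fucosyltransferase that makes the H antigen, was at 3.8, 3.15 and 4.11 CPM in siControl and at 0.151, 0.219 and 0.366 CPM in siKMT9α, which there corresponds to 2 to 7 counts. FUT1 passed the filter through its siControl samples alone and was not tested where at least 10 counts were required in every sample, so these levels are given as a description. ST6GALNAC2, called higher, had at most 10.5 counts in siControl and passed the filter through its siKMT9α samples alone. B3GNT3 and ST6GALNAC4 had log2FC values of -0.40 and -0.30, and with offsets for GC content and length they no longer passed the test. B3GNT3 also lost its call without siControl replicate 3, and ST6GALNAC4 without siKMT9α replicate 3, where its log2FC was -0.17.

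**Figure D3:**
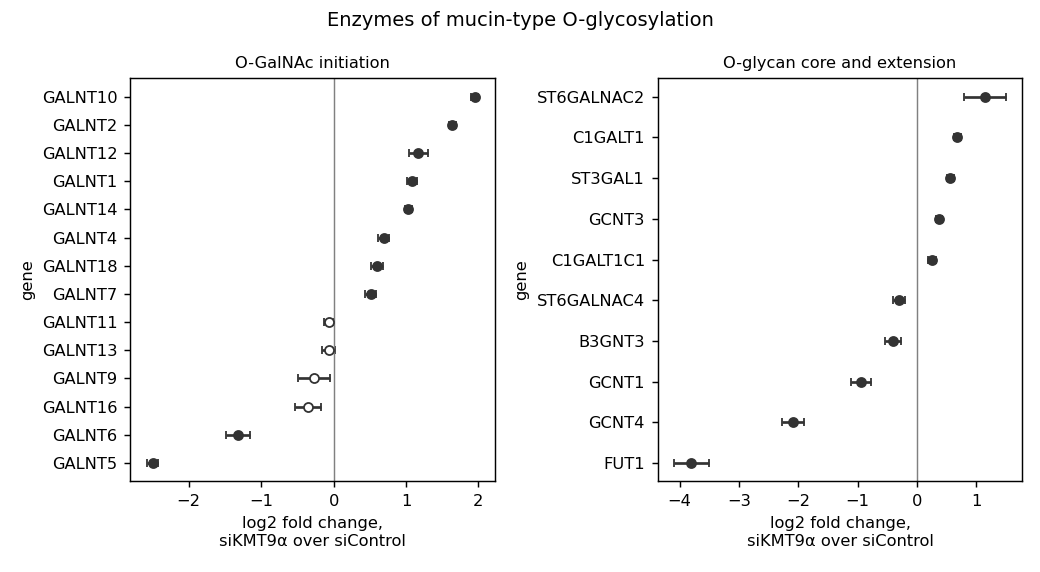
Log2 fold change (siKMT9α over siControl, horizontal axis) of the tested O-glycosylation genes, with bars for the standard error, filled points for an adjusted p under 0.05 and open points for the others. In the left panel, 8 filled points lie right of 0 and 2, GALNT5 and GALNT6, left of it, and in the right panel 5 filled points lie on each side. In the right panel, FUT1 and ST6GALNAC2 passed the filter on low counts through a single group.

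Genes of the goblet and secretory cell programme, which in airway epithelium accompany gel-forming mucins, were mostly low in A549 cells. Of 21 genes, 7 were tested, 2 rose, 3 fell and 2 did not pass the test, and 14 had too few counts. The 5 of 7 called stand beside 75.6% called over all genes. SPDEF, the transcription factor that drives goblet cell differentiation, had at most 0.265 CPM in any sample, and 5 of the 21 genes were at 0 in all samples. AGR2, a disulfide isomerase of the endoplasmic reticulum needed to fold mucins, was at 641.0, 584.6 and 567.3 CPM in siControl and at 292.9, 294.7 and 341.6 CPM in siKMT9α. Its log2FC of -0.95 ± 0.06 (SE) was opposite in sign to that of MUC5B. XBP1, a transcription factor of the secretory pathway, fell from 443.8 ± 2.55 to 252.3 ± 6.70 CPM (log2FC -0.81), and CREB3L1, which acts in the same pathway, from 1.82 ± 0.459 to 0.64 ± 0.0494 CPM (-1.50; SD, n = 3 each). FOXA2, a forkhead factor of lung epithelium, rose from 26.5 ± 2.28 to 44.1 ± 2.29 CPM (log2FC 0.73), and FCGBP, which is found with gel-forming mucins in mucus, from 0.993 ± 0.0424 to 2.24 ± 0.0391 CPM (1.16; SD, n = 3 each). With offsets for GC content and length, the log2FC of FCGBP was 0.71. CREB3L1 had 8 to 12.5 counts in siKMT9α and passed the filter through its siControl samples, so its levels and log2FC are given as a description. FOXA1 was at 20.6 ± 0.137 and 20.6 ± 1.23 CPM (SD, n = 3 each).

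Membrane mucins act together with growth factor receptors and lectins and are released by proteases. Of 15 such genes, all were tested, 9 rose, 2 fell and 4 did not pass the test (median log2 fold change 0.42). The 11 of 15 called stand beside 75.6% called over all genes, and without siKMT9α replicate 3 the median was 0.23. EGFR, a receptor tyrosine kinase with which MUC1 interacts, was at 18.0, 17.9 and 18.3 CPM in siControl and at 109.2, 99.6 and 112.8 CPM in siKMT9α, with a log2FC of 2.57 ± 0.06 (SE). ERBB2, a receptor that MUC4 binds, was at 53.3, 52.8 and 49.7 CPM in siControl and at 49.8, 47.7 and 52.4 CPM in siKMT9α, and its groups overlapped. The sheddase ADAM10 rose from 54.1 ± 6.69 to 233.9 ± 15.4 CPM (SD, n = 3 each), with a log2FC of 2.11. ADAM17, which sheds MUC1, had a log2FC of 0.29, which was 0.18 with the library size alone. LGALS3 encodes galectin-3, a lectin that binds sugars on MUC1, and was at 98.9, 100.2 and 97.6 CPM in siControl and at 25.8, 25.9 and 27.2 CPM in siKMT9α, with a log2FC of -1.91 ± 0.05 (SE). MSLN, or mesothelin, which binds MUC16, fell by 1.29 on the log2 scale. MSN, counted among those that rose with a log2FC of 0.10, lost its call in 9 of 15 alternatives, among them the replicate block and the omission of any one sample other than siControl replicate 1. With the library size alone and with offsets for GC content and length, its log2FC was -0.0 after rounding (adjusted p = 0.941 and 0.954 in edgeR's test).

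**Figure D4:**
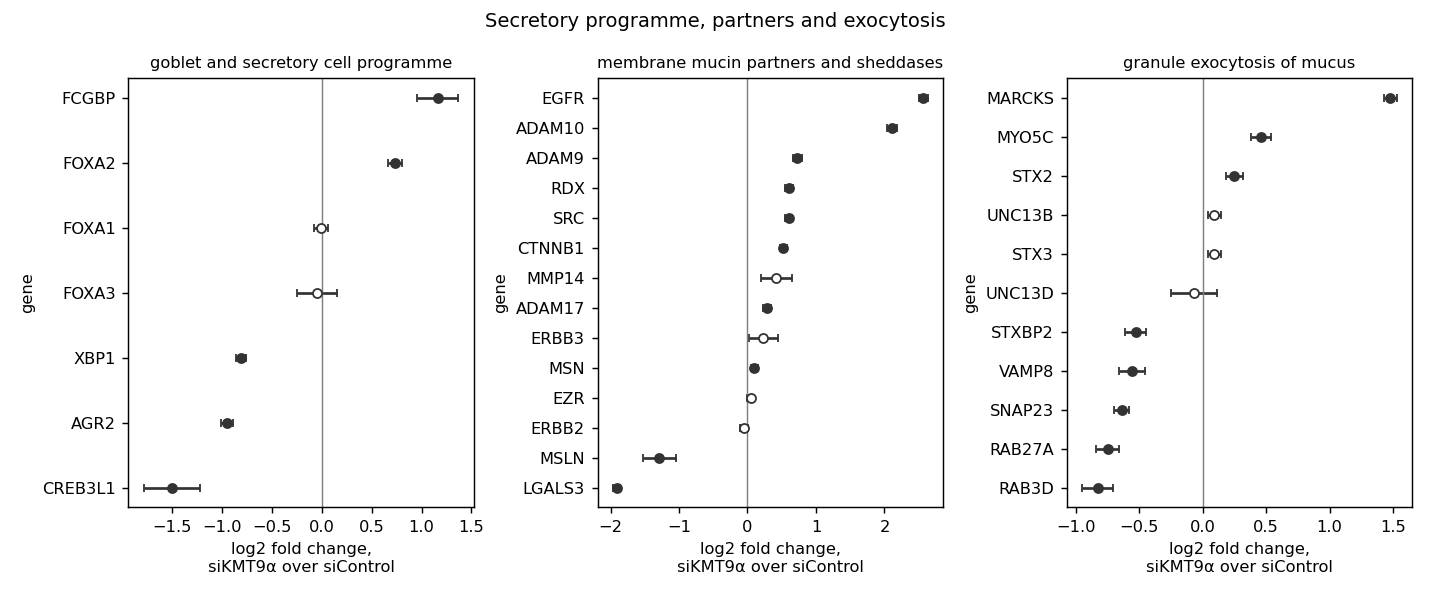
Log2 fold change (siKMT9α over siControl, horizontal axis) of the tested genes of the secretory cell programme, of mucin partners and sheddases and of mucus granule exocytosis, with bars for the standard error, filled points for an adjusted p under 0.05 and open points for the others. AGR2, XBP1 and CREB3L1 lie left of 0, EGFR and ADAM10 have the largest positive and LGALS3 the largest negative value in the middle panel, and MARCKS has the largest positive value in the right panel. In the left panel, CREB3L1 passed the filter on low counts through its siControl samples.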

How the data were processed

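Reads had been mapped by the authors with STAR (build hg19) and assigned to RefSeq transcripts by HOMER, and the deposited values are estimated counts in steps of 0.5 that were not normalized. HOMER's counting options, the strand setting and the read length are not given in the sources used here. The authors' own edgeR comparison was also deposited, as a linear fold change (a ratio) with p-values before and after adjustment, and was not used. The 1182 of 38767 rows without a symbol and counts were left out.

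Counts were rounded and tested with edgeR 4.0.16 in R 4.3.3 (TMM, filterByExpr, quasi-likelihood F test, two-sided, Benjamini-Hochberg over 13877 genes). CPM values use the unrounded counts. Standard errors are the log2 fold change divided by the square root of F. Positions and exons come from GENCODE on GRCh37, which shares its coordinates with hg19. The samples with the same replicate number are not stated to be pairs, and no block was used in the main fit.

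The mucins and the companion lists were chosen with earlier results of these data known. Named are all mucins, N6AMT1 and, from each list, up to 3 genes per direction with the largest changes among those past the test with a mean of at least 1 CPM, with further list members chosen after their values were seen. The counts of the lists include 2 genes that are not reported or drawn here. Alternatives were DESeq2 1.42.0, the likelihood-ratio test, other scalings and filters, every transcript, omission of each sample and the replicate block. Counts doubled before rounding and offsets for GC content and length were added after the data were seen.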

Additional observations from a re-analysis of the deposited data

How the results depend on the processing

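MUC5B and MUC13 kept their direction and passed the test under all 16 alternatives, with log2 fold changes of 2.01 to 2.75 for MUC5B and 0.27 to 0.49 for MUC13. MUC5B was lowest with offsets for GC content and length. With each sample left out they ran from 2.24 to 2.75 and from 0.33 to 0.49, and for MUC1 from -0.04, without siKMT9α replicate 1, to 0.32. The number of mucins called was 2 to 3. The third was MUC20, called without the filter, with doubled counts, without siControl replicate 2 and without siKMT9α replicate 2. MUC20 had at most 3 counts in a siControl sample, so where a filter was used it passed through its siKMT9α samples alone. These calls of MUC20 are given as a description. Between samples of the same replicate number, the deviations from the group means had correlations of -0.16, 0.06 and -0.13 over 13877 genes. With 3 samples a group, these values cannot tell whether the cultures were run as pairs. With the replicate block, 2342 genes passed the study's threshold in place of 3357, and the log2 fold changes were 2.5 for MUC5B, 0.38 for MUC13 and 0.15 for MUC1. The likelihood-ratio test gave 5962 genes at this threshold, no filter 6070 and every transcript 6767, with 18897 transcripts at an adjusted p under 0.05. With the library size alone, 1516 of 3378 genes past the study's threshold were higher, against 1878 of 3357. As a mean over all its transcripts, MUC4 was at 0.0234 CPM per kb in siControl and 0.0346 in siKMT9α, above MUC20 in siControl. Its transcripts run from 3898 to 16755 bases. Of the 48 companion genes called, 37 were called under all 15 gene-level alternatives. The sign changed for 1, MSN, at a log2 fold change of -0.0 after rounding. Counts below about 3 per sample limit MUC4, MUC15 and MUC16.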

Other observations

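Genes of granule exocytosis, by which goblet cells release mucus, moved in both directions upon knock-down of KMT9α. Of 13 genes, 12 were tested, 4 rose, 5 fell and 3 did not pass the test, with a median log2 fold change of 0.01. The 9 of 12 called stand beside 75.6% called over all genes. MARCKS, an actin-binding protein that guides mucin granules to the cell surface, was at 67.0, 63.5 and 69.6 CPM in siControl and at 177.9, 194.6 and 184.8 CPM in siKMT9α, with a log2FC of 1.48 ± 0.05 (SE). MYO5C, a myosin of secretory granules, rose from 20.1 ± 1.84 to 27.5 ± 1.96 CPM (log2 fold change 0.46; SD, n = 3 each). STX2, a syntaxin, had a log2 fold change of 0.25, and did not pass the test with the library size alone. The granule GTPases RAB3D and RAB27A fell by 0.83 and 0.75 on the log2 scale, and the SNARE protein gene SNAP23 by 0.64. VAMP8 and STXBP2 fell by 0.56 and 0.53 on the log2 scale. With offsets for GC content and length, the log2 fold changes were 0.19 for MYO5C, -0.30 for VAMP8 and -0.29 for STXBP2, each with an adjusted p under 0.05 in edgeR's test.

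Among the epithelial markers, EPCAM was at 3.86 ± 0.395 and 0.593 ± 0.145 CPM and passed the filter on low counts through its siControl samples, and CDH1 rose from 3.39 ± 0.944 to 8.62 ± 0.957 CPM (SD, n = 3 each).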
